A study of Arabidopsis thaliana with 8 samples.

Results

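Transcript levels of Arabidopsis thaliana seedlings that had never been heated were compared between 24 h and 8 h of a time course of heat priming, in which the unprimed seedlings were the controls. The comparison took the log2 value of every probe set in the unprimed 24 h array minus its log2 value in the unprimed 8 h array, and covered 22746 of the 22810 probe sets of the ATH1 microarray after 64 control probe sets were left out. Of these, 21194 were assigned to exactly 1 gene. The series held 8 arrays, 4 of unprimed and 4 of primed seedlings, taken at 4, 8, 24 and 48 h, and each array carried RNA of 1 pool of whole seedlings.

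All seedlings were wild-type Col-0, 5 days old at the start, and were grown on agar medium with 1% sucrose at 22 °C under 16 h of light and 8 h of darkness. The unprimed groups, harvested at 4, 8, 24 and 48 h, had no heat. The primed groups were kept at 37 °C for 1.5 h, returned to 22 °C for 1.5 h and then brought to 44 °C for 45 min, and were harvested at the same times after the end of that treatment. The sources used here did not give the hour of the day of any harvest, and they did not say whether the unprimed seedlings stood in darkness while the primed seedlings were heated. The 8 h and 24 h harvests lay 16 h apart, so the hour within the light and dark cycle and the age of the seedlings cannot be told apart in this comparison, whereas the 24 h and 48 h harvests lay exactly a day apart. With 1 array for each condition there was no spread between replicates, and no difference below could be tested. In such pools, fewer cells of a type and less RNA for each cell cannot be told apart.

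Many plant transcripts cycle over the day. The circadian clock of Arabidopsis is built from morning-phased genes such as CCA1, LHY, PRR9, PRR7 and the LNK genes. It also holds evening-phased genes such as TOC1, GI and the ELF genes, and these genes repress or activate each other in turn. Light and sugar act on top of the clock. Light raises transcripts of flavonoid synthesis, sugars repress transcripts such as ASN1 and DIN1, which are high in carbon-starved tissue, and sucrose in the medium is known to raise anthocyanin genes and to interact with the phosphate starvation response. After germination seedlings also change from seed reserves to photosynthesis, and transcripts of seed storage proteins and oleosins are lost early in that change.

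The limit of a 2-fold difference was passed by 708 probe sets that were higher at 24 h than at 8 h, 3.11% of all, and by 786 that were lower, 3.46% of all. The other 21252 lay within 2-fold. The differences had a median of 0.00, and the 5th and 95th percentiles lay at -0.81 and 0.78. At least 4-fold differences were found for 152 higher and 147 lower probe sets, and at least 16-fold differences for 23 higher and 10 lower ones. Both arrays were at the lowest value of the scale, a log2 value of 2.0, for 5851 probe sets, 25.7% of all, which therefore could show no difference. The array medians lay between 7.0 and 7.08 in the 4 unprimed arrays.

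**Figure D1:**
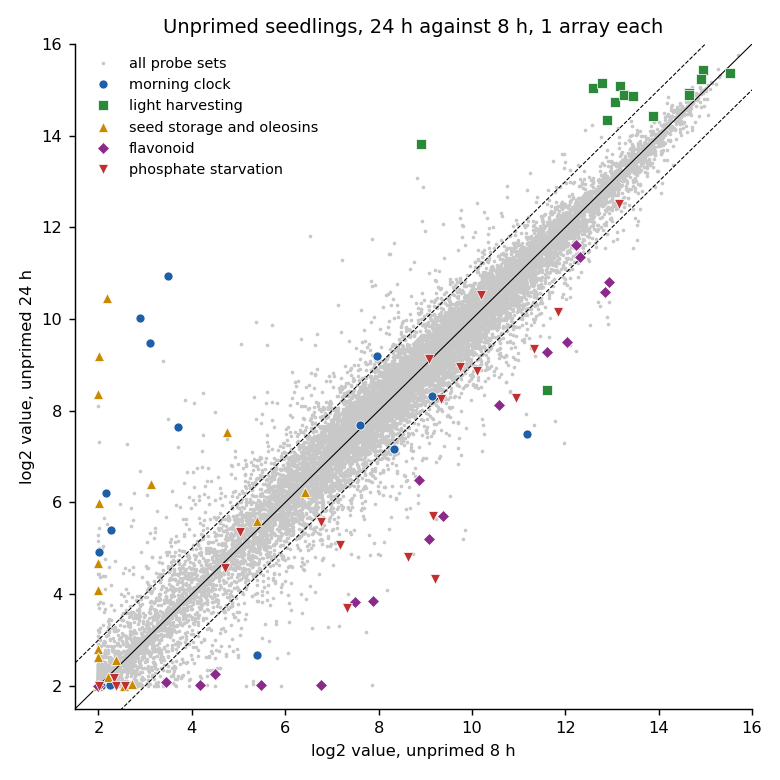
Log2 values of all 22746 probe sets in the unprimed 8 h array (x axis) and the unprimed 24 h array (y axis), 1 array each, with 5 gene lists coloured, the solid line marking equal values and the dashed lines a 2-fold difference. The morning clock, light-harvesting and seed storage lists have 8 members each above the upper dashed line, and the flavonoid list has 15 below the lower one.

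Other pairs, which shared no array with this comparison, were set beside it. Between primed 24 h and primed 8 h, 1574 probe sets (6.92%) were higher and 1283 (5.64%) lower, in seedlings that were recovering from heat. Between unprimed 48 h and unprimed 4 h, 807 (3.55%) were higher and 557 (2.45%) lower. Of the 708 probe sets higher in the unprimed 24 h array, 205 were also higher in the primed pair, which was 29.0% of the 708 and 13.0% of the 1574, and 57 were lower there. In the pair of 48 h and 4 h, 254 of the 708 were higher, 35.9% of the 708 and 31.5% of the 807, and 14 were lower. Of the 786 lower probe sets, 134 were also lower in the primed pair (17.0% of the 786 and 10.4% of the 1283) and 129 were higher there. In the pair of 48 h and 4 h, 144 of the 786 were lower (18.3% of the 786 and 25.9% of the 557) and 38 were higher.

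A rule took the 10 highest and the 10 lowest single-gene probe sets that lay more than 1 above the floor in both arrays, which leaves out PRR7 and SESA5, given below, with 2.89 and 2.19 at 8 h. LNK4 and LNK3, both clock genes, had the highest differences. The 10 higher ones were LNK4, LNK3, the J-domain protein gene J11, DIN1, LHCB2.3, the J-domain protein gene AT2G17880, the B-box gene COL5, the CCCH zinc finger gene AT5G44260, the putative thionin gene AT1G66100 and MYBL2, with differences from 7.46 down to 4.25. The 10 lower ones were PS2, AT5G20790, AT5G42760, the putative polygalacturonase gene AT1G60590, the GATA factor gene CGA1, the sugar transporter gene SWEET2, DFR, cPT4, MES18 and MYB111, with differences from -4.87 to -3.86. Among probe sets at the floor in only 1 of the arrays compared, where the difference is only a limit, the 5 highest were SESA2, the protein kinase gene CIPK20, SESA1, ASN1 and the glutaredoxin gene AT3G62950, with limits from 7.18 down to 5.30. The 5 lowest were AT3G28270, PAP2, ACD6, PAP1 and the camalexin synthesis gene CYP71A13, with limits from -5.85 to -3.27. CIPK20 read 2.0 at 4 h and 2.01 at 8 h but 9.11 at 24 h and 9.52 at 48 h.

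Of the 14 morning clock genes, 8 were higher at 24 h, and 3 were lower. Here and below, log2 values of a gene are given in the order of the unprimed 4, 8, 24 and 48 h arrays, and a difference is the log2 value at 24 h minus that at 8 h. The morning clock genes had 15 probe sets, of which 8 (53.3%) were at least 2-fold higher and 3 lower, beside 3.11% and 3.46% of all probe sets. Their median difference was 1.23. The same shares of all probe sets stand beside every list below. Counts in the primed pair stand beside 6.92% higher and 5.64% lower, and those in the pair of 48 h and 4 h beside 3.55% and 2.45%. LNK4, a member of the LNK family of clock coactivators, read 4.17, 3.49, 10.95 and 11.38, a 176-fold difference between 24 h and 8 h. LNK3 of the same family read 2.74, 3.11, 9.48 and 10.75, a difference of 6.37. PRR7, a repressor of CCA1 and LHY, read 4.86, 2.89, 10.03 and 10.03, a difference of 7.14. In all of these genes both early arrays were low and both late arrays high, with no overlap. LNK1 read 2.0, 2.17, 6.21 and 6.96, and LNK2 read 2.04, 3.70, 7.65 and 8.15, with differences of 4.04 and 3.95. The probe set of the repressor PRR9, which also matches AT2G46670, read 2.19, 2.26, 5.40 and 8.05. CCA1, a MYB-like factor of the morning loop, was at the floor at 4 h and at 8 h, at 2.0 and 2.01, and read 4.92 at 24 h and 5.12 at 48 h, so that its difference of 2.91 is a limit. RVE7, a relative of CCA1, read 6.17, 7.96, 9.19 and 10.27, and its difference of 1.23 was the lowest among the higher members.

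LHY, the closest relative of CCA1, went the other way. It read 2.03, 5.40, 2.67 and 2.67, so that the 8 h array stood above the other 3 unprimed arrays and the difference was -2.73. RVE2, a further MYB-like factor of this family, read 10.49, 11.19, 7.49 and 7.09, a difference of -3.70, with both early arrays above both late ones. RVE4, an activator of evening genes, read 7.91, 8.32, 7.16 and 7.81, a difference of -1.16, and RVE1, which links the clock to auxin, read 8.05, 9.15, 8.32 and 7.84, a difference of -0.83 that did not reach the limit. RVE6 differed by 0.09, and the 2 probe sets of RVE8 stayed between 2.0 and 2.25 in all 4 unprimed arrays.

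The evening genes were divided. Of 11 probe sets for 12 genes, 3 were higher and 1 was lower, with a median of 0.03. GI, a large protein that stabilises the photoreceptor ZTL, read 6.28, 5.71, 9.88 and 9.99, a difference of 4.17. PRR5, a repressor of the same family as PRR7, read 7.46, 7.83, 10.83 and 10.86, a difference of 3.0. CHE, a TCP factor that represses CCA1, read 8.97, 8.22, 9.95 and 9.75, a difference of 1.73. The members of the evening complex and TOC1 did not share this pattern. ELF4 read 12.90, 13.10, 11.75 and 11.58, a difference of -1.35, whereas the probe set shared by LUX and BOA differed by 0.03 and ELF3 by the same. TOC1, the pseudo-response regulator that represses CCA1 and LHY, read 10.34, 10.37, 9.96 and 9.75. FKF1, a blue-light receptor of the flowering pathway, differed by 0.71, ZTL by -0.37, PRR3 by -0.20 and LKP2 by 0.00.

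**Figure D2:**
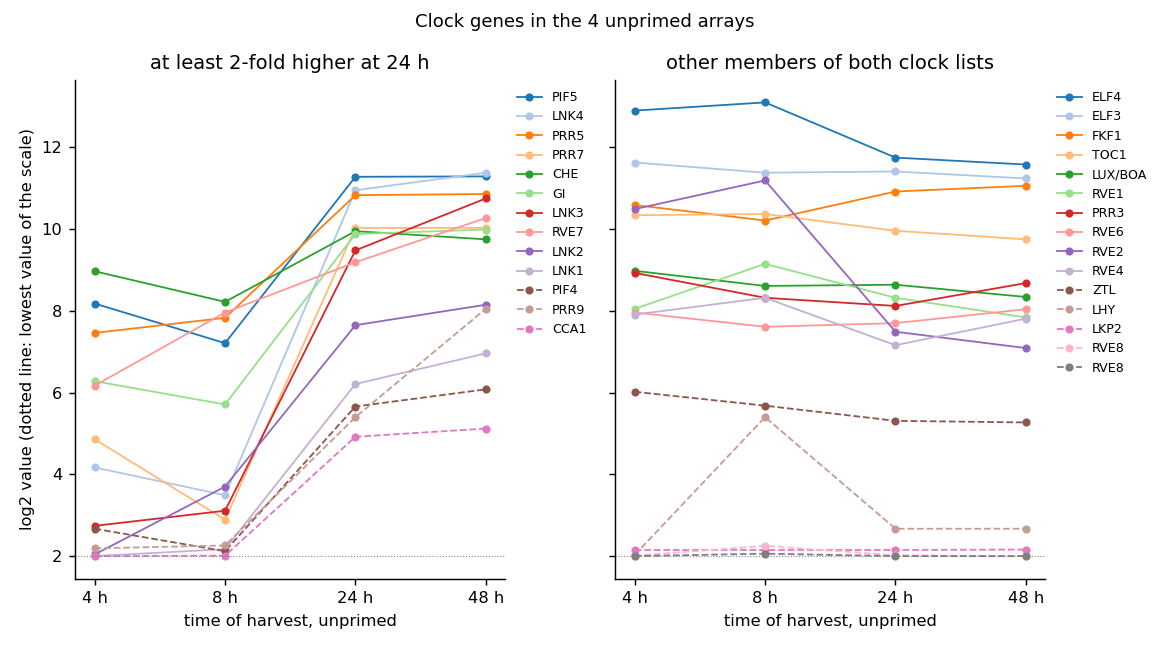
Log2 values in the unprimed 4, 8, 24 and 48 h arrays (x axis, equally spaced, 1 array each) for the clock genes and the growth-promoting factors PIF4 and PIF5 that were at least 2-fold higher at 24 h (left) and for the other members of both clock lists (right). On the left most lines step up between 8 h and 24 h, as in LNK4 from 3.49 to 10.95, whereas on the right LHY peaks at 8 h with 5.40 and RVE2 drops from 11.19 to 7.49.

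In the primed pair, too, several morning genes were higher at 24 h than at 8 h. There, 10 morning probe sets were higher and 1 lower, with a median of 1.60. LNK4, LNK3, LNK2 and PRR9 differed by 4.71, 4.22, 4.80 and 4.32. Their primed 4 h levels were already raised, at 9.36, 9.65, 6.34 and 5.7. These lay above the primed 8 h levels of 7.09, 7.35, 4.57 and 4.08, unlike the low early arrays of unprimed seedlings. GI differed by only -0.26 in that pair, since primed seedlings already read 9.41 at 8 h. LHY differed by 5.20 in the primed pair, with 2.03 at 8 h and 7.23 at 24 h, the opposite of the unprimed pair. In the unprimed pair of 48 h and 4 h, 8 morning probe sets were higher and 1 lower, with a median of 3.12.

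Among 13 clock outputs 5 were higher and 2 lower, with a median of 0.31. CDF3, a DOF factor that delays flowering, read 4.00, 4.49, 7.98 and 8.87, a difference of 3.49. CO, the CONSTANS factor that promotes flowering in long days, read 6.80, 6.36, 3.59 and 3.54, a difference of -2.77, and its relative COL1 differed by -1.53. COL2 differed by 1.63 and the cold-regulated gene COR28 by 1.2. The RNA-binding proteins GRP7 and GRP8 differed by 0.18 and 0.14 at 8 h levels of 14.41 and 13.03. Of 18 genes of the B-box family 3 were higher (16.7%) and 2 lower (11.1%), beside 3.11% and 3.46% of all probe sets. Among them COL5 read 6.0, 5.05, 9.46 and 10.10, and COL9 read 8.57, 8.26, 5.69 and 5.26.

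Light-harvesting genes were higher at 24 h in most cases. These genes encode the chlorophyll-binding antenna proteins of both photosystems. The list held 15 probe sets for 22 genes of the antenna and of the small subunit of Rubisco. Of these, 8 (53.3%) were higher and 1 (6.7%) was lower, beside 3.11% and 3.46% of all probe sets, with a median of 1.41. LHCB2.3 read 8.12, 8.91, 13.82 and 13.85, a 30.1-fold difference, with both late arrays above both early ones. The probe set shared by LHCB1.4 and LHCB1.5 differed by 2.43, that shared by LHCB2.1 and LHCB2.2 by 2.36, and LHCB3 by 1.90. LHCB4.2, LHCA4, LHCB6 and LHCA1 followed with 1.67, 1.64, 1.45 and 1.41. The members whose 8 h level was already 13.88 or more differed less, for example LHCA3 from 14.96 to 15.44 and the probe set of LHCB1.1, LHCB1.2 and LHCB1.3 from 14.66 to 14.89, close to the top of the scale. LHCB4.3, an antenna gene known to respond to high light, went the other way and read 8.10, 11.61, 8.46 and 8.14, with the 8 h array alone high. Where another unprimed array replaced 1 of those compared, the remaining array was shared with this comparison. Set against the 4 h array, 5 light-harvesting probe sets were higher at 24 h, and set against the 8 h array, 8 were higher at 48 h. The primed pair held 7 higher and 0 lower members, and the pair of 48 h and 4 h held 6 higher and 0 lower.

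The genes that supply pigments and photosystem cores moved less. Of 15 chlorophyll synthesis genes 2 were higher and 0 lower, with a median of 0.21. CAO, which makes chlorophyll b, read 6.87, 8.15, 10.53 and 10.82, and PORB, a light-dependent protochlorophyllide reductase, differed by 1.06. Of 28 nuclear photosystem subunits, only PSAD-2 passed the limit, with 11.99, 11.98, 13.61 and 13.46, and the median was 0.27. In the primed pair 12 chlorophyll genes were higher and 1 was lower. The plastid-encoded transcripts were on the lower side, with 0 of 72 higher and 19 lower and a median of -0.66. The most lowered were ATCG00520 at -2.05, ATCG00150 at -2.04 and ATCG01110 at -1.98, and rbcL (ATCG00490), for the large subunit of Rubisco, read 10.36, 10.48, 8.77 and 9.66. Here the 24 h array stood apart, since 1 plastid-encoded probe set was lower at 48 h than at 8 h and 21 were lower at 24 h than at 4 h.

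Genes that mark darkness and sugar starvation were higher at 24 h, against an 8 h array in which they were low. Of 27 probe sets for 26 genes, 14 were higher (51.9%) and 3 lower (11.1%), with a median of 1.08. ASN1, asparagine synthetase, read 6.60, 2.0, 8.10 and 6.25, so that its difference of 6.10 is a limit. DIN1, also called SEN1, read 11.52, 6.54, 11.82 and 10.91, a 38.9-fold difference. BCAT2, a branched-chain amino acid transaminase, read 6.25, 2.76, 6.21 and 3.81. In ASN1, DIN1 and BCAT2 the 8 h array was the lowest of the 4, and the 4 h value was within 1.50 of the 24 h value. TPS11, of the trehalose phosphate synthase family, read 10.23, 8.94, 12.15 and 10.99, and its relatives TPS10, TPS8 and TPS9 differed by 2.13, 1.60 and 1.24. DRM1, the hexose transporter STP1, the factor BZIP1 and the leucine breakdown gene MCCA differed by 2.40, 1.80, 1.70 and 1.61. DIN10 with 1.08 lay just inside the limit and DIN11 with 0.92 just outside it.

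The 3 lower members of that list were KIN10, BZIP11 and GPT2. KIN10, the catalytic subunit of the energy-sensing kinase SnRK1, read 7.59, 7.63, 5.83 and 7.39, with the 24 h array alone low. BZIP11, a factor repressed by sucrose at the level of translation, read 11.47, 12.27, 10.92 and 11.06, and the glucose phosphate transporter GPT2, known to rise with sugar, read 7.70, 8.53, 7.40 and 7.23. With the 4 h array in place of the 8 h array, 3 probe sets of the list were higher at 24 h instead of 14. With the 48 h array in place of the 24 h array, 11 were higher. The pair of 48 h and 4 h held 0 higher and 1 lower member, and the primed pair held 4 higher and 3 lower. Starch genes had a median of 0.19, with 2 of 27 higher, BAM4 at 1.22 and LSF1 at 1.05. These were 7.4%, beside 3.11% of all probe sets. BAM3, a chloroplast beta-amylase, alone was lower with 11.01, 12.89, 10.05 and 10.11.

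**Figure D3:**
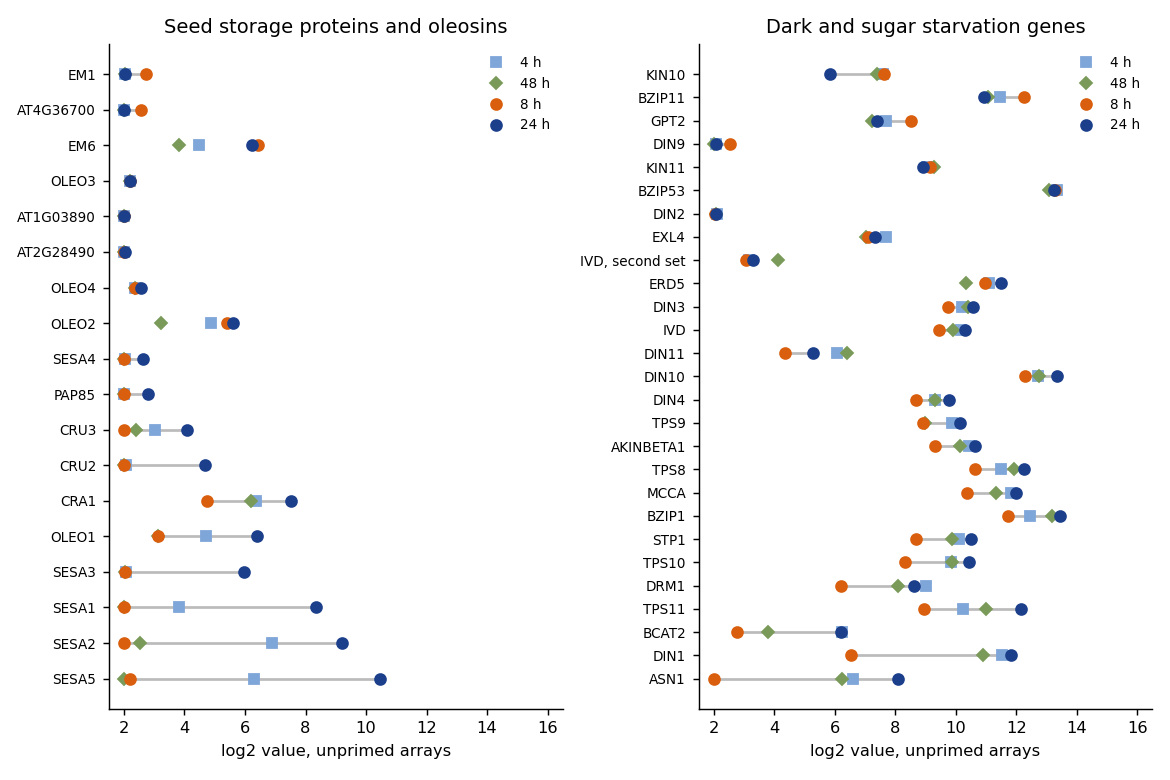
Log2 values of seed storage and oleosin genes (left) and of dark and sugar starvation genes (right) in the 4 unprimed arrays, 1 point for each array (4 h light squares, 8 h orange circles, 24 h dark circles, 48 h diamonds), with a grey bar from 8 h to 24 h. On the left the 24 h array is the highest for SESA5 at 10.47, SESA2 at 9.19 and SESA1 at 8.36, and on the right the 8 h array is the lowest for ASN1 at 2.0 and DIN1 at 6.54.

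Transcripts of several seed storage proteins were highest at 24 h. Of 18 genes for storage proteins, oleosins and late embryogenesis proteins, 8 were higher (44.4%) and 0 lower, with a median of 0.73. SESA5, a 2S albumin, read 6.30, 2.19, 10.47 and 2.0, and its difference of 8.28 was the largest of any list member. SESA2 read 6.89, 2.01, 9.19 and 2.52, and SESA1 read 3.81, 2.0, 8.36 and 2.0. In all of these 2S albumins the 24 h array was the highest, the 4 h array came next and the 8 h and 48 h arrays were at or near the floor. SESA3 read 2.06, 2.02, 5.98 and 2.02. The oleosin OLEO1, which coats oil bodies, read 4.72, 3.13, 6.41 and 3.13, and the 12S globulin CRA1 read 6.37, 4.75, 7.53 and 6.19. CRU2 read 2.07, 2.0, 4.68 and 2.0, and CRU3 read 3.03, 2.0, 4.09 and 2.40, so that both differences, 2.68 and 2.09, are limits.

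Not every seed transcript took part. PAP85 and SESA4 differed by 0.81 and 0.64 from the floor. OLEO2 read 4.88, 5.39, 5.60 and 3.21, and the late embryogenesis gene EM6 read 4.47, 6.43, 6.22 and 3.83. EM1 differed by -0.68, AT4G36700 by -0.55, OLEO4 by 0.18, AT2G28490 by 0.02, AT1G03890 by 0.00 and OLEO3 by -0.01. With the 48 h array in place of the 24 h array, 1 member was higher instead of 8, and with the 4 h array in place of the 8 h array 9 were. In the primed pair 0 were higher and 2 lower, with 2.0 for SESA2 at 24 h and 4.61 at 8 h.

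Flavonoid genes had the largest share of members past the limit among all the lists, 83.3%. They encode the route from phenylalanine to flavonols and anthocyanins and the MYB and bHLH factors that switch it on. Of 18 genes 0 were higher and 15 lower, beside 3.46% of all probe sets, and the median was -2.34. PAP2, a MYB factor for anthocyanin also called MYB90, read 2.13, 6.77, 2.02 and 2.38, and PAP1 (MYB75) read 2.01, 5.48, 2.02 and 2.1, so that both differences, -4.75 and -3.46, are limits. For both genes the 8 h array was high and the other 3 unprimed arrays read 2.38 or less. DFR, the first enzyme committed to anthocyanin, read 2.34, 7.88, 3.85 and 3.68, a 16.3-fold difference. The flavonol factors MYB111 and MYB12 read 7.26, 9.07, 5.21 and 6.37, and 4.82, 7.49, 3.82 and 3.76, respectively.

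The enzymes of the shared early steps were also highest at 8 h. CHS, chalcone synthase, read 11.49, 12.94, 10.81 and 10.17, and F3H read 11.13, 12.85, 10.59 and 10.28. CHI, FLS1 and TT7 differed by -2.31, -2.53 and -2.37, and 4CL3 and PAL1 at the entry differed by -3.69 and -2.45. LDOX and UF3GT, late anthocyanin enzymes, rested near the floor at 4, 24 and 48 h and read 4.50 and 4.18 at 8 h. The bHLH factor TT8 differed by -1.37, PAL2 by -0.96, just short of the limit, C4H by -0.62, and MYB11 was at the floor in all arrays. The glutathione transferase GSTF12, which carries anthocyanin to the vacuole and was looked up after its values were seen, read 3.98, 9.24, 5.65 and 4.64. MYBL2, a MYB-like repressor of anthocyanin synthesis, had the opposite sign and read 8.74, 8.82, 13.07 and 13.24, a 19.0-fold difference. With the 4 h array in place of the 8 h array 3 flavonoid genes were lower instead of 15, and with the 48 h array in place of the 24 h array 15 were. In the primed pair 0 were higher and 7 lower, with a median of -0.68.

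Light signalling genes went both ways. Of 20 probe sets 3 were higher and 5 lower. PIF5 and PIF4, factors that promote elongation and act against photomorphogenesis, read 8.18, 7.21, 11.28 and 11.29, and 2.67, 2.12, 5.66 and 6.08, respectively. In the primed pair they differed by 3.40 and 3.25. HY5, a factor that promotes photomorphogenesis and flavonoid genes, read 10.26, 11.08, 9.55 and 9.85, and its relative HYH read 11.42, 12.93, 10.38 and 10.67. ELIP2 and ELIP1, early light-induced proteins of the thylakoid, differed by -2.33 and -1.89. Of the photoreceptors, PHYA, CRY2 and CRY1 differed by 0.94, 0.74 and 0.65 and PHYB by -0.44. Both early arrays were above both late arrays for HYH and HY5, and the 8 h array alone stood out for ELIP2 with 12.71.

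Genes of the phosphate starvation response were lower at 24 h than at 8 h. This list was added after values were seen, when PS2 came out as the gene with the lowest difference above the floor, so its count describes how far that observation reached. The response comprises phosphatases, phosphate transporters and enzymes that replace phospholipids by galactolipids and sulfolipids, under control of PHR1 and its inhibitors of the SPX family. Of 21 genes measured 0 were higher and 11 lower (52.4%, beside 3.46% of all probe sets), with a median of -1.09. PS2, a phosphatase, read 4.76, 9.21, 4.34 and 4.75, a 29.2-fold difference. PECP1, a phosphatase for phosphoethanolamine and phosphocholine, read 3.07, 8.64, 4.82 and 5.50, and the galactolipid synthase MGD3 read 2.89, 7.33, 3.69 and 4.42. For all of these the 8 h array alone was high. The purple acid phosphatase PAP17 read 9.59, 10.94, 8.27 and 8.98, and the transporter PHT1;4, whose probe set also matches AT3G54700, read 6.04, 7.17, 5.07 and 5.21.

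The 2-fold limit was also passed by the glycerol-3-phosphate permease G3PP1, which read 8.45, 9.17, 5.71 and 7.92, and by SPX1 and SPX2 with -1.97 and -1.25. GDPD1, PLDP2 and SQD2 differed by -1.70, -1.2 and -1.09. PHR1, the master regulator, differed by 0.33, the transporter PHT1;1 by 0.06 and SQD1 by -0.62. With the 4 h array in place of the 8 h array 2 of the genes were lower, and with the 48 h array in place of the 24 h array 10 were. The primed pair held 4 higher and 0 lower, namely RNS1, PHT1;4, G3PP1 and PS2, and its 8 h array read 2.69 for PS2. Iron genes had 4 of 8 lower (50.0%, beside 3.46% of all probe sets) and 1 higher (12.5%, beside 3.11%). The factor BHLH39, the root iron transporter IRT1 and the nicotianamine synthase NAS4 read 9.21, 10.25, 7.49 and 6.76, then 7.88, 7.41, 4.87 and 4.63, and then 9.96, 10.82, 8.40 and 8.60, so that both early arrays were above both late ones. BHLH101 differed by -1.24, and the iron store ferritin FER1 was higher, by 1.05. BHLH38, BHLH100, FIT and FRO2 had no probe set assigned to them.

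**Figure D4:**
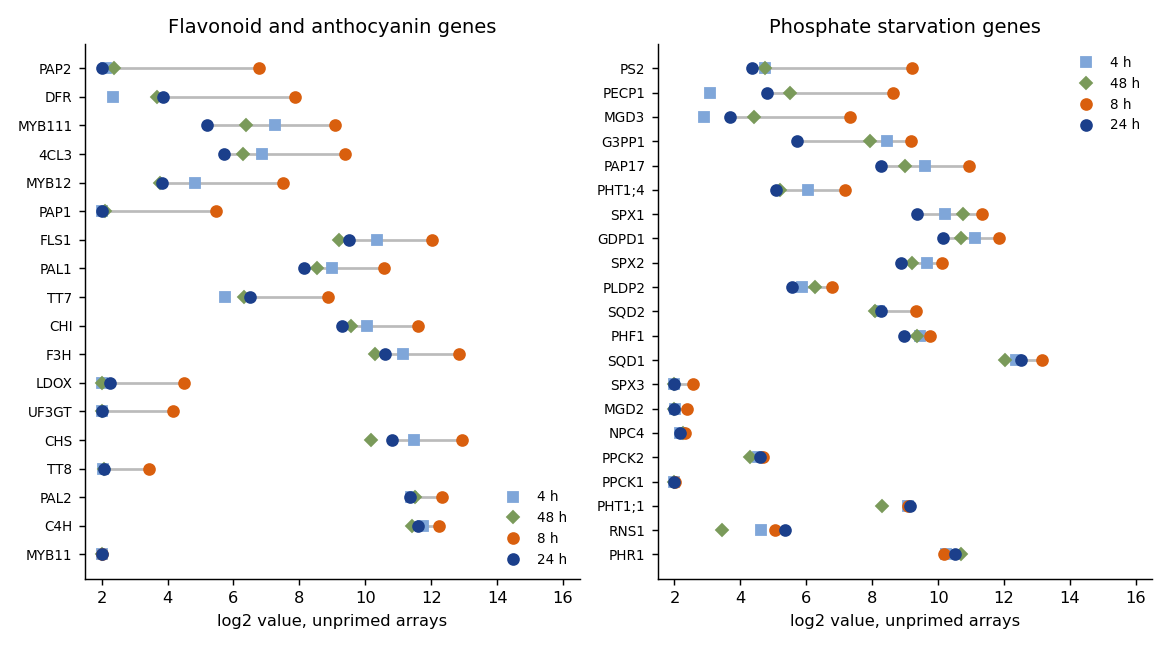
Log2 values of the flavonoid genes (left) and the phosphate starvation genes (right) in the 4 unprimed arrays, 1 point for each array (4 h light squares, 8 h orange circles, 24 h dark circles, 48 h diamonds), with a grey bar from 8 h to 24 h. In most rows the 8 h point is the highest of the 4, as for PAP2 at 6.77 and PS2 at 9.21.

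Low-oxygen genes, a list also added after values were seen, had 10 of 15 members higher and 0 lower, with a median of 1.22. The 66.7% higher stood beside 3.11% of all probe sets. CML38, a calmodulin-like protein, read 4.27, 4.24, 8.38 and 7.22, and the factor LBD41 read 6.07, 5.61, 9.43 and 7.61. SRO5 read 3.45, 4.24, 7.47 and 4.32, with the 24 h array alone high. HRA1, an inhibitor of the low-oxygen response, read 7.56, 6.64, 9.43 and 7.68, and the factor HRE1 read 7.01, 7.03, 8.83 and 8.94. The oxygen-consuming cysteine oxidases PCO2 and PCO1 differed by 1.55 and 1.22, pyruvate decarboxylase PDC1 by 1.44, ETR2 by 1.08 and haemoglobin HB1 by 1.01. The fermentation enzyme ADH1 did not reach the limit, with 10.86, 11.90, 12.48 and 12.46, and SUS1, SUS4, PDC2 and HRE2 differed by 0.31, 0.27, 0.25 and 0.04. With the 48 h array in place of the 24 h array 7 members were higher. In the primed pair 0 were higher and 4 lower, beside 6.92% and 5.64% of all probe sets in that pair.

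Growth-related families moved in different directions. Of 9 SAUR genes, small auxin-responsive genes linked to cell elongation, 4 were higher (44.4%, beside 3.11% of all probe sets) and 0 lower. SAUR28 read 4.78, 4.05, 8.17 and 6.76, and SAUR15, SAUR23 and SAUR68 differed by 1.92, 1.90 and 1.58. Among 22 Aux/IAA repressors, IAA29 was higher, with 4.05, 2.02, 5.44 and 5.44, and IAA28 and IAA13 were lower, at -1.06 and -1.1. Expansins and xyloglucan transferases, which loosen the cell wall, had 13 of 55 probe sets lower and 1 higher, with a median of -0.03. EXPA10 read 8.53, 9.73, 7.41 and 7.71, EXPA15 read 8.06, 8.55, 6.60 and 8.15, and EXPA8 alone was higher with 3.69, 3.25, 5.82 and 6.40. All 9 root hair genes were below their 8 h level, by 0.77 to 1.55, but only PRP3 and RSL4 passed the limit. PRP3, a proline-rich wall protein, read 9.63, 9.30, 7.75 and 8.11. In the primed pair 5 root hair genes and 11 wall-loosening genes were higher and 0 of either were lower.

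Several large groups were level over these 16 h. None of 26 cell division genes passed the limit, and their median was 0.18. The same count was 0 of 37 for proteasome genes, 0 of 43 for histone genes and 1 lower of 149 for cytosolic ribosomal proteins. Their medians were 0.03, 0.11 and -0.03. Of these probe sets 2, 5 and 12, respectively, were at the floor in both arrays and could not pass the limit. The ribosomal list was drawn by symbol or description and need not be purely cytosolic. Nitrate assimilation had 0 of 9 past the limit. Mitochondrially encoded transcripts had 1 lower of 43, of which 26 were at the floor in both arrays. Glucosinolate synthesis had 1 of 16 higher (6.2%, beside 3.11% of all probe sets), the factor MYB51 at 1.29. The primed pair differed in some of these groups, with 11 higher cell division genes and 23 lower proteasome genes. It held 0 of 149 cytosolic ribosomal proteins and 0 of 9 nitrate genes past the limit.

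Stress and hormone lists had members on both sides. Of 13 cold-regulated genes 4 were higher (30.8%, beside 3.11% of all probe sets), led by COR15A with 2.35, 2.35, 4.73 and 5.26, and ZAT12 was lower at -1.38. In the salicylate list 2 of 11 genes, ICS1 and WRKY70, were higher by 1.04 and 1.01, and PR1 and PR2 were at the floor. In the jasmonate list of 13 probe sets JAZ9 and LOX2 (15.4%, beside 3.46% of all) were lower, at -1.54 and -1.2. The response regulator ARR16 was the only member of 9 cytokinin genes past the limit, at -1.61. Of 56 WRKY genes 7 were higher (12.5%) and 2 lower, led by WRKY28 at 2.69 and WRKY40 at 2.19. Of 41 ERF genes 4 were higher (9.8%) and 2 lower (4.9%). The higher were HRE1 (ERF73) at 1.8, RAP2.10 at 1.54, ERF2 at 1.41 and ERF11 at 1.12. The lower were CRF11 at -1.92 and DREB2A at -1.55.

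**Figure D5:**
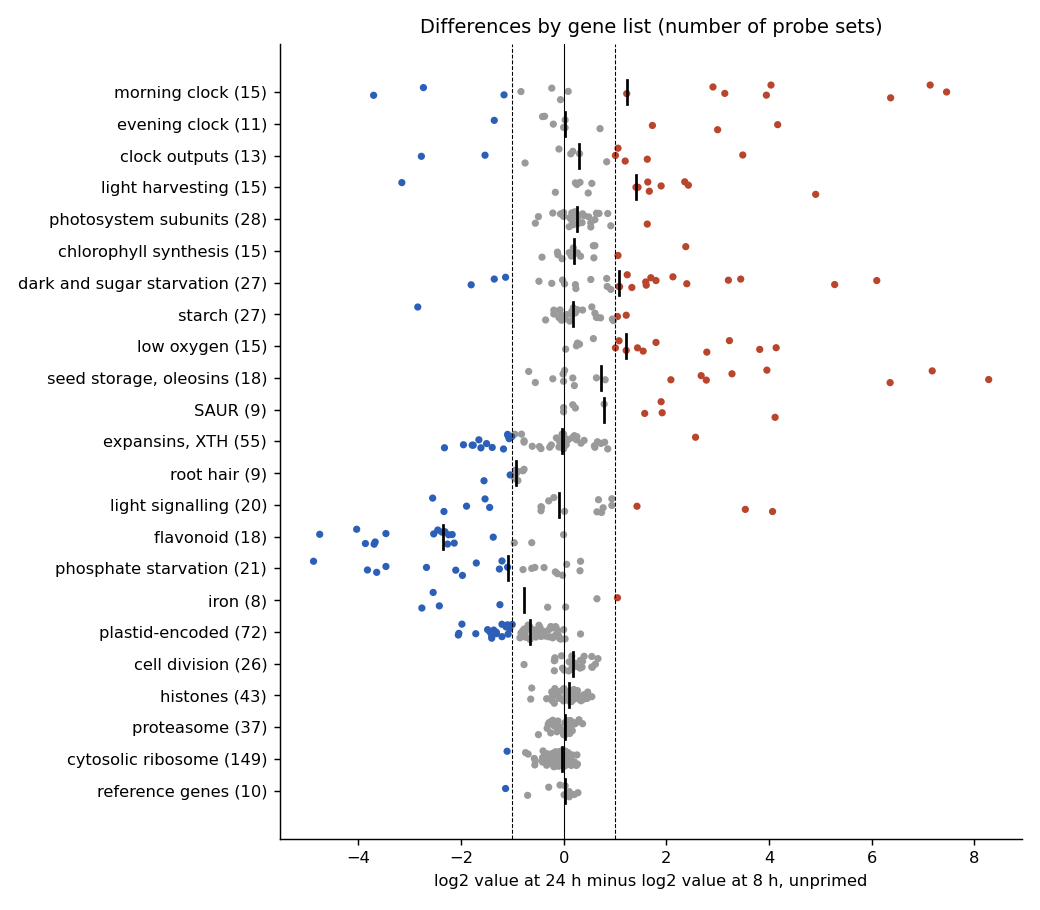
Log2 value at 24 h minus log2 value at 8 h in unprimed seedlings (x axis) for 23 gene lists, 1 point for each probe set, coloured where it is at least 2-fold higher or lower, with black bars at the list medians and dashed lines at 2-fold. The flavonoid list has its median at -2.34 and the light-harvesting list at 1.41, whereas the proteasome, histone and ribosome lists lie around 0.

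The labels of primed and unprimed arrays, but not those of the harvest times, were checked with heat genes. HSP21 and HSP22.0 were at 2.0 in all 4 unprimed arrays, against 14.62 and 14.15 in the primed 8 h array. Of the 15 heat genes 2 were higher at 24 h, HSP18.2 by 2.29 and HSP17.6II by 1.1, and 3 were lower, HSFA2 at -2.13, HSP90.1 at -1.67 and HSP17.6C at -1.26. Root markers such as PYK10, at 14.69 and 14.46, and CASP1, at 9.69 and 9.76, were present in both arrays, and 0 of 10 passed the limit, so that transcripts of roots and, with the antenna genes, of leaves were measured in both. PLT1 and PLT2 were at the floor in both arrays and could not pass the limit, and AGL42 and CASP2 read 2.40 or less. Of 10 reference genes, 9 were within 2-fold with a list median of 0.02. The exception was UBC21, which read 10.85, 10.81, 9.68 and 10.76.

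The 24 h array stood apart in its control probe sets. Each of 6 pairs of probe sets measures the 5' and the 3' end of a transcript of actin, GAPDH or ubiquitin, and a lower value at the 5' end goes with shorter labelled RNA. The 5' minus 3' difference was lower at 24 h than at 8 h in 5 of the 6 pairs, for example -3.86 against -2.83 for the first GAPDH set, and -5.88 against -4.88 for the second actin set, and the sixth pair was equal. At 48 h these sets read -3.27 and -5.02. Beside this, 84 of the 708 higher and 115 of the 786 lower probe sets had the 24 h array at least 2-fold apart from each of the other 3 unprimed arrays. Genes of this kind, picked after their values were seen, were AS1, a leaf polarity factor, with 10.74, 11.15, 7.94 and 9.85, SDE3 with 8.33, 8.44, 6.20 and 7.88, and UBP3 with 5.99, 6.06, 3.98 and 5.53. KIN10, UBC21, G3PP1 and the 4 lowered plastid-encoded transcripts given above were also lowest at 24 h. The 8 h array stood apart for 190 of the 786 lower probe sets, in which it alone was high, and for 92 of the 708 higher ones, in which it alone was low. By the same rule the 4 h array alone was high for 84 probe sets and alone low for 110, and the 48 h array for 111 and 61. In these counts the 24 h array was therefore close to the 4 h array. The part of RNA length in these differences was not tested.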

How the data were processed

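RNA of the 8 pools was hybridised to ATH1 arrays, 1 array for each condition. The authors deposited log2 values, which per the labels came from processing with GCRMA and RMA, versions not given in the sources used here, nor the genome build or annotation release behind the gene numbers. Values were used as deposited, with no pseudocount, and start at a floor of 2.0. A value within 0.05 of it was called at the floor. Both deposited tables held equal values in all 181968 cells compared. The comparison table also holds the authors' differences of primed against unprimed arrays, which were not used, and 0 columns of values were left without a sample. Intensities before normalization were not used here, and arrays give no count depth. The number of arrays limits the precision.

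For every probe set the 8 h value was subtracted from the 24 h value (Python 3.11.15, pandas 2.3.3, numpy 2.4.6, matplotlib 3.10.9), and a difference of at least 1 on the log2 scale (2-fold, the limit used in the study) was counted. The counting step was tested on simulated data. Without replicates no test, p-value or adjusted p-value was computed. Lists of genes (22 by gene number, 10 by symbol or description, and the plastid- and mitochondrially encoded genes) were described by counts and medians beside those of all probe sets. Members and lists were chosen with earlier results of these data known, and the phosphate and low-oxygen lists were added after values were seen. Named genes were the 10 highest and 10 lowest probe sets of 1 gene that lay more than 1 above the floor in both arrays. The 5 highest and 5 lowest at the floor in 1 of them were also named. From the lists, members with large differences, members next to the limit and some others were named, without a fixed number. Every morning clock, evening clock and seed storage member was named. Symbols came from a RefSeq gene table (TAIR10.1), used for names alone. Promoter motifs were not searched. Alternatives were quantile normalization, centring on reference genes, floor filters, other fold limits, both other pairs of arrays and, chosen after seeing the data, the 48 h array in place of 24 h and the 4 h array in place of 8 h.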

Additional observations from a re-analysis of the deposited data

Results flagged for a closer look

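Over the same hours, 186 probe sets differed by at least 2-fold in opposite directions in unprimed and primed seedlings, and 32 of them were members of the lists. Of the 708 higher probe sets 8.05% were lower in the primed pair, beside 5.64% of all probe sets. Of the 786 lower ones 16.4% were higher there, beside 6.92% of all. In the same direction in both pairs, 205 were higher and 134 lower. The difference between the unprimed and the primed pair was not tested, since each pair was 1 array against 1 array, and primed seedlings were recovering from heat at both times. LHY gave -2.73 in unprimed and 5.20 in primed seedlings, and its relative RVE4 gave -1.16 and 1.44. COR28 gave 1.2 in unprimed and -1.98 in primed seedlings. BCAT2 gave 3.45 and -1.15, SESA2 7.18 and -2.61, and OLEO1 3.28 and -1.01. The root hair gene PRP3 gave -1.55 in unprimed and 3.08 in primed seedlings. The iron genes BHLH101 and NAS4 gave -1.24 and -2.42 in unprimed and 2.43 and 1.97 in primed seedlings. Of the phosphate genes, PHT1;4, G3PP1 and PS2 gave -2.1, -3.46 and -4.87 in unprimed and 1.75, 1.24 and 1.00 in primed seedlings. Of the low-oxygen genes, SRO5, HRE1 and PDC1 gave 3.23, 1.8 and 1.44 in unprimed and -4.82, -1.02 and -2.09 in primed seedlings. Cold-regulated COR15A, COR15B and RD29A gave 2.38, 1.61 and 1.12 in unprimed and -2.92, -2.36 and -3.79 in primed seedlings, and the heat gene HSP17.6II gave 1.1 and -1.14. MYB51 gave 1.29 and -1.03, and LOX2 -1.2 and 4.83. WRKY40 and WRKY38 gave 2.19 and -1.18 in unprimed and -2.02 and 1.89 in primed seedlings, and ERF11 gave 1.12 and -1.31. Of the wall-loosening genes, XTH26, XTH13, XTH12, EXPA5 and EXPA4 gave -1.08, -1.17, -1.61, -1.76 and -1.78 in unprimed and 1.58, 4.54, 3.29, 1.44 and 1.21 in primed seedlings. Plastid-encoded ATCG00190, ATCG00360 and ATCG00150 gave -1.09, -1.40 and -2.04 in unprimed and 1.53, 1.18 and 1.24 in primed seedlings.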

How the results depend on the processing

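No paired analysis was possible because each condition had 1 array, and for the same reason no replicate could be left out. The 708 higher and 786 lower probe sets became 1956 and 1905 at a 1.5-fold limit, 152 and 147 at a 4-fold limit, and 1574 and 1283 in the primed pair. At a 4-fold limit the higher light-harvesting probe sets numbered 3, the higher starvation probe sets 6 and the lower phosphate probe sets 6. With the 4 h array in place of the 8 h array, 5 light-harvesting and 3 starvation probe sets were higher, and 3 flavonoid and 2 phosphate probe sets were lower. With the 48 h array in place of the 24 h array 1 seed storage probe set was higher. The median of the starvation list changed sign to -0.22 between 48 h and 4 h, and those of the phosphate and low-oxygen lists changed sign to 0.38 and -0.54 in the primed pair. Quantile normalization left the median of all differences at 0.00, and centring on the reference genes moved it to 0.14. The other 64 recomputed counts, of all probe sets and of the morning clock, light-harvesting, starvation, flavonoid, seed storage and phosphate lists, stayed within 1.5 times of those reported. List counts in both other pairs were not among these. In the primed pair and the pair of 48 h and 4 h, 4 and 0 starvation and 0 and 0 seed storage probe sets were higher. There, 7 and 3 flavonoid and 0 and 1 phosphate probe sets were lower. Higher morning clock probe sets numbered 10 and 8, and light-harvesting ones 7 and 6. Among further results, 945 stayed alike, 106 counts moved past 1.5 times or to or from 0, 16 values fell below 2-fold and 10 rose to it. Some of the settings could not change a count. The second deposited table held equal values, and probe sets at the floor in both arrays, where these were left out, could not reach the limit. Differences of probe sets near the floor are limits, and no difference has an error, since there was 1 array for each condition.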
